A study of Homo sapiens with 6 samples.

Results

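The genes of the YAP/TAZ pathway described here were 10 genes chosen by name: the targets CCN1, CCN2, ANKRD1 and AMOTL2, the coactivators YAP1 and WWTR1, the DNA-binding partner TEAD1, the kinases LATS1 and LATS2, and the scaffold gene AJUBA. Each of the 10 symbols matched 1 Ensembl identifier among the 61496 features of the deposited tables, and all 10 passed the expression filter. CCN1 and CCN2 are called CYR61 and CTGF in older tables. The libraries came from U251, an established human glioma cell line, with 3 libraries of untreated cells (control) and 3 of cells exposed to the volatile anesthetic sevoflurane (Sev) for 2 h. Neither group carried a transgene or deletion by the labels. The labels list concentrations of 1.7%, 3.4% and 5.1% for the series and assign none to a single library. The profiled cells are described elsewhere as exposed to 5.1% Sev, and the 3 Sev libraries were taken as 1 group on their treatment label. The methods speak of independent experiments for quantitative data in general, and the labels do not say whether the libraries of a group came from separate cultures. If they did not, the p-values measure only the spread between these libraries, which may be technical.

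YAP (gene YAP1) and TAZ (gene WWTR1) are coactivators that carry no DNA-binding domain and act on genes through TEAD transcription factors. In the Hippo pathway the kinases MST1 and MST2 activate LATS1 and LATS2, which phosphorylate YAP and TAZ and so keep them out of the nucleus or mark them for degradation. Their activity is set largely by phosphorylation, cell shape and tension on the actin cytoskeleton, which counts of RNA do not measure. CCN1 and CCN2 encode secreted matricellular proteins and are standard readouts of YAP and TAZ activity. AMOTL2 and LATS2 are target genes whose products restrain YAP and TAZ in turn. In glioma cells YAP and TAZ are known for roles in growth, invasion and the mesenchymal state.

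The promoters of 3 targets and of LATS2 are shown because these genes are the ones on which the pathway's transcription acts, and because they moved by very different amounts. The sequences are the 250 bases before the start site in RefSeq (GRCh38.p14), read 5′ to 3′ on the strand of the gene. Capitals mark GGAATG or its reverse complement CATTCC, the core of the TEAD motif. The CCN2 window is chr6:131951373-131951622, minus strand, the ANKRD1 window chr10:90921088-90921337, minus strand, the AMOTL2 window chr3:134374448-134374697, minus strand, and the LATS2 window chr13:21061587-21061836, minus strand.
CCN2: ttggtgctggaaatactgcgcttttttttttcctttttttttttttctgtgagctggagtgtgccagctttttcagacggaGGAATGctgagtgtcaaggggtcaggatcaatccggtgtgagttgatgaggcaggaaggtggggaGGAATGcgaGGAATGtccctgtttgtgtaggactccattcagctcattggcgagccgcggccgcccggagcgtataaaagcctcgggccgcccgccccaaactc
ANKRD1: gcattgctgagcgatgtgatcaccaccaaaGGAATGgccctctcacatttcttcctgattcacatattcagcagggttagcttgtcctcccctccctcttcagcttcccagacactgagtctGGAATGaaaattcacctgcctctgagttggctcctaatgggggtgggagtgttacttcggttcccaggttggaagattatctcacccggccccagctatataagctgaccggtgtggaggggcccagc
AMOTL2: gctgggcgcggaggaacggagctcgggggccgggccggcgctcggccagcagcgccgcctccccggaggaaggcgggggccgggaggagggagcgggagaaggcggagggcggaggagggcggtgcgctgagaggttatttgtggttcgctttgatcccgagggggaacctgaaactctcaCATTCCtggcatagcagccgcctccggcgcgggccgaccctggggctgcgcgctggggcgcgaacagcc
LATS2: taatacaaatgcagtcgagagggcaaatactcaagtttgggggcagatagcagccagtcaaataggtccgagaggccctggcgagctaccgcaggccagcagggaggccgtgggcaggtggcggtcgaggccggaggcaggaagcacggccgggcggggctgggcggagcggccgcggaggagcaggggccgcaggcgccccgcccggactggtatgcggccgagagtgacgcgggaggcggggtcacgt

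The CCN2 window held 3 matches, whose first bases lay 169, 104 and 95 bases before the start site. The ANKRD1 window held 2 matches, at 220 and 128 bases, the AMOTL2 window shown 1, at 69 bases, and the LATS2 window 0. Single matches also stood in the window of YAP1, at 162 bases, and in 1 of the 2 windows of AJUBA, at 59 bases. The AMOTL2 and AJUBA windows with a match lie inside the annotated genes. Their other windows, at the upstream starts (chr3:134375418-134375667 and chr14:22982552-22982801), held 0. Of all 35116 promoter windows of this length in the table, 11.9% held at least 1 match and 0.940% held more than 1. Windows were found for 8 of the 10 genes, 12 windows in all because AMOTL2, WWTR1, LATS1 and AJUBA have 2 listed starts, and 5 of the 12 held a match. The AP-1 motif TGACTCA, searched on both strands, was in 4.20% of all windows, the CArG box of the serum response factor in 1.16%, and each was in 0 of the 12. A match of letters is a description of the window and not a site of binding.

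The level of the 10 genes spanned a wide range. On the FPKM scale, which counts reads per length of gene and so allows genes to be set side by side, control cells held 344 ± 6.29 FPKM (SD, n = 3) of CCN1 and 280 ± 34.6 FPKM (SD, n = 3) of CCN2. CCN1 stood above 99.8% and CCN2 above 99.7% of the tested features in control cells. ANKRD1 followed with 48.6 FPKM, AMOTL2 with 26.0, WWTR1 with 16.1, YAP1 with 11.8, TEAD1 with 10.5, LATS1 with 7.23, AJUBA with 7.14 and LATS2 with 5.14. Neighbours in this order did not overlap over the 3 control libraries, except LATS1 and AJUBA. In Sev-treated cells CCN2, at 873 FPKM, stood above CCN1, at 573 FPKM, and the ranges of the Sev libraries did not overlap. LATS2 rose from the last place to the seventh, at 12.4 FPKM, where its range overlapped that of YAP1, at 13.3 FPKM. The ranges of TEAD1 and LATS1, and of LATS1 and AJUBA, overlapped in the Sev libraries.

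All 4 targets passed as higher in Sev-treated U251 cells by edgeR's quasi-likelihood test over all features. The amounts were very unequal, from 3.44-fold for CCN2 to 1.18-fold for ANKRD1. The call of ANKRD1 was near the limit and held in only 3 of 16 alternative fits. Counts were normalized by TMM and are given as CPM, counts scaled to the effective size of each library. An adjusted p, after Benjamini-Hochberg over the 27514 tested features, under 0.05 was taken as passing. By this rule 22.1% of all tested features were higher in Sev. Whether more cells expressed a gene or each cell held more of its RNA cannot be told apart in these bulk libraries.

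CCN2 (ENSG00000118523, chromosome 6, 131948176 to 131951373, minus strand, GRCh38) moved furthest. It held 663, 884 and 764 CPM in the control libraries and 2734, 2833 and 2393 CPM in the Sev libraries. Every Sev library stood far above every control library. The change was 1.78 ± 0.13 in log2 units, with its standard error (edgeR, adjusted p = 0.000112), and 5.88% of the tested features rose by more. CCN1 (ENSG00000142871, chromosome 1, 85580761 to 85583962, plus strand), the other secreted CCN protein of the set, held 959, 1025 and 976 CPM in control cells and 1754, 2079 and 1632 CPM in Sev-treated cells. The groups did not overlap, and the Sev libraries were more spread than the control libraries. The fold was 1.85 (adjusted p = 0.000687, edgeR), and the 95% interval on the log2 scale ran from 0.63 to 1.13.

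AMOTL2 and ANKRD1 rose less. AMOTL2 (ENSG00000114019, chromosome 3, 134355874 to 134375479, minus strand) encodes an angiomotin that holds YAP at cell junctions and promotes LATS activity. It held 161, 212 and 177 CPM in control cells and 249, 258 and 245 CPM in Sev-treated cells, with no overlap. Its fold was 1.37, with a 95% interval from 1.15 to 1.62 (adjusted p = 0.0118, edgeR). The call was lost in 2 of 16 alternatives, without control replicate 3 (adjusted p = 0.0511) and with limma on log2(FPKM + 1) with no filter (0.0575). ANKRD1 (ENSG00000148677, chromosome 10, 90912096 to 90921276, minus strand) encodes an ankyrin-repeat protein of muscle and stressed cells, and is a common readout beside CCN1 and CCN2. It held 121, 108 and 109 CPM in control cells and 136, 133 and 128 CPM in Sev-treated cells. The groups were separate by a narrow margin. The change was 0.23 ± 0.078 in log2 units, with its standard error (edgeR, adjusted p = 0.0420). This call was near the limit and was lost in 13 of 16 alternatives, among them the fits without control replicate 2 (adjusted p = 0.128), control replicate 3 (0.153), Sev replicate 1 (0.131), Sev replicate 2 (0.0630) and Sev replicate 3 (0.0548). On the FPKM scale, which has no TMM correction, the 2 groups overlapped, with 48.6 ± 4.08 FPKM in control and 51.7 ± 1.64 FPKM in Sev (SD, n = 3).

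**Figure D1:**
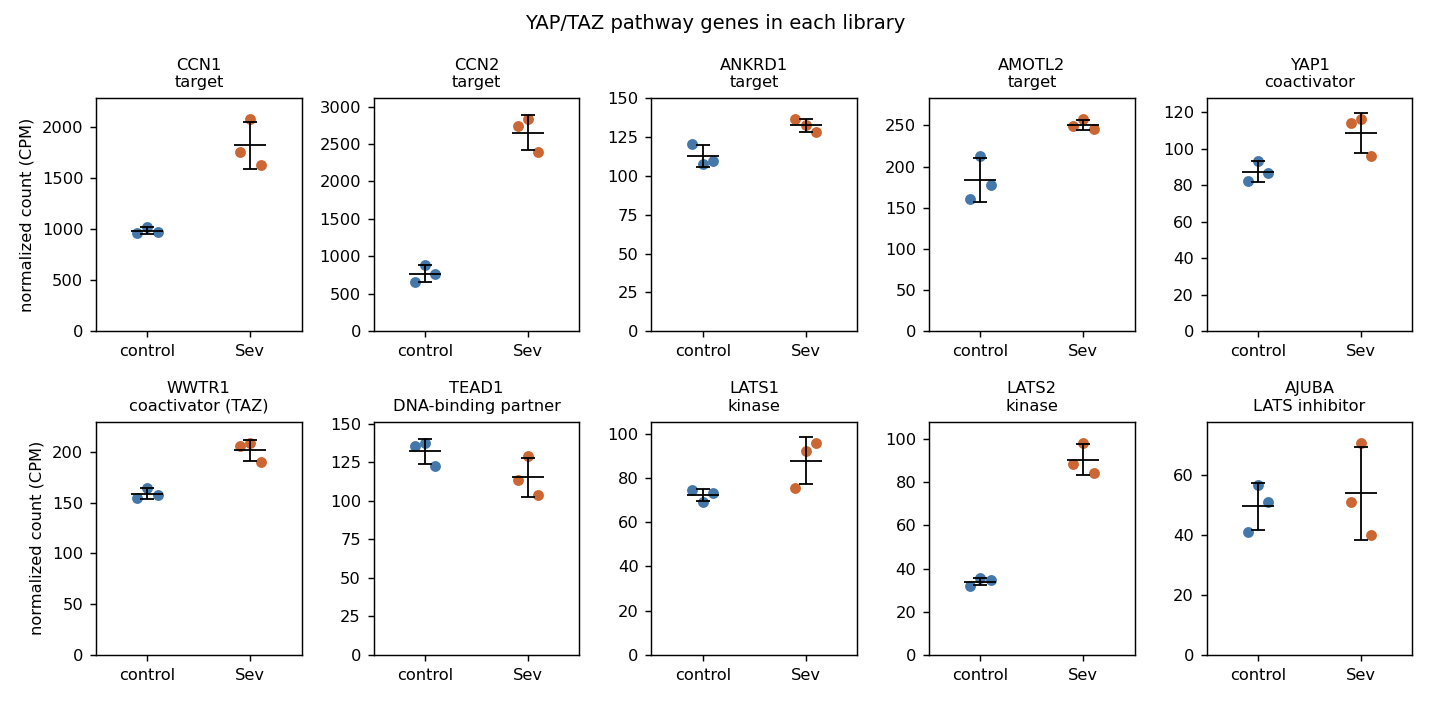
Normalized counts (CPM, y axis from 0) of the 10 genes in the 3 control and 3 Sev libraries. Points are libraries, and bars are the mean and SD. The groups are far apart for CCN1, CCN2 and LATS2, close but separate for ANKRD1, AMOTL2, YAP1, WWTR1 and LATS1, and overlapping for TEAD1 and AJUBA.

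The genes of both coactivators passed the test with small folds. WWTR1 (ENSG00000018408, chromosome 3, 149517235 to 149736714, minus strand), the gene of TAZ, held 155, 165 and 157 CPM in control cells and 206, 209 and 190 CPM in Sev-treated cells. The groups did not overlap. The fold was 1.27, with a 95% interval from 1.12 to 1.43 (adjusted p = 0.00808, edgeR), and it passed in all 16 alternatives. YAP1 (ENSG00000137693, chromosome 11, 102110461 to 102233423, plus strand) held 82.2, 93.6 and 86.6 CPM in control cells and 114, 116 and 96.3 CPM in Sev-treated cells. The lowest Sev library, replicate 3, stood only just above the highest control library. The fold was 1.24, with a 95% interval from 1.06 to 1.46 (adjusted p = 0.0338, edgeR). The call was lost in 10 of 16 alternatives, among them the fits without control replicate 1 (adjusted p = 0.109), control replicate 3 (0.106), Sev replicate 1 (0.113) and Sev replicate 2 (0.0826).

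TEAD1 (ENSG00000187079, chromosome 11, 12674591 to 12944483, plus strand), a TEAD factor through which YAP and TAZ reach DNA, did not pass the test. It held 136, 138 and 123 CPM in control cells and 113, 129 and 104 CPM in Sev-treated cells. Sev replicate 2 lay within the control range. The log2 fold change was −0.19 (95% interval −0.42 to 0.04, adjusted p = 0.151, edgeR). With library size in place of TMM the value was −0.34 (adjusted p = 0.0146), where the median over all features was itself −0.15. Without Sev replicate 2 it was −0.28 (adjusted p = 0.0467).

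Of the 2 LATS kinase genes, LATS2 rose and LATS1 did not pass. LATS2 (ENSG00000150457, chromosome 13, 20973032 to 21061547, minus strand) held 32.0, 35.4 and 34.5 CPM in control cells and 88.5, 98.2 and 84.3 CPM in Sev-treated cells. The lowest Sev library stood well over the highest control library. The fold was 2.66, with a 95% interval from 2.29 to 3.08 (adjusted p = 7.85e-05, edgeR). By p-value LATS2 was in place 134 among the 27514 features, ahead of CCN2 in place 206. LATS1 (ENSG00000131023, chromosome 6, 149658153 to 149718256, minus strand) held 74.4, 69.1 and 73.2 CPM in control cells and 75.6, 92.1 and 95.9 CPM in Sev-treated cells. Sev replicate 1 was close to the control libraries and the other 2 were above them. The log2 fold change of 0.28 (95% interval 0.04 to 0.52) did not pass after adjustment (adjusted p = 0.0590, edgeR). It passed in 2 of 16 alternatives, without Sev replicate 1 (0.38, adjusted p = 0.0229) and with the size factors of DESeq2 in place of TMM.

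AJUBA (ENSG00000129474, chromosome 14, 22971174 to 22982642, minus strand) encodes a LIM protein that binds LATS kinases under tension and inhibits them. It held 41.1, 56.5 and 51.0 CPM in control cells and 50.8, 70.7 and 40.1 CPM in Sev-treated cells. The groups overlapped fully, and the lowest value of all was a Sev library. The log2 fold change was 0.12, with a wide 95% interval from −0.36 to 0.60 (adjusted p = 0.666, edgeR). Neither a fall nor a rise within that interval was excluded by these libraries. The sign turned with the scaling, to −0.028 with library size only.

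**Figure D2:**
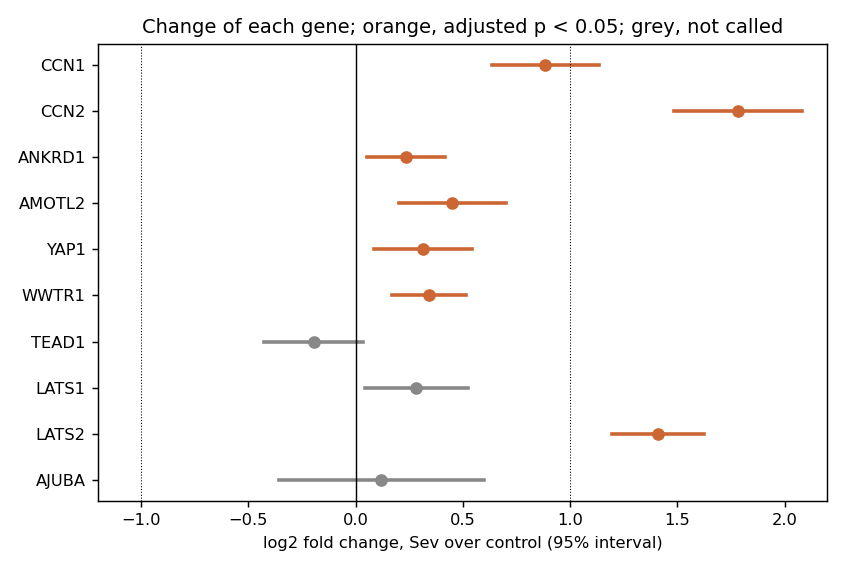
Log2 fold change of each gene, Sev over control (x axis), with its 95% interval. Orange genes had an adjusted p under 0.05, and dotted lines mark a log2 fold change of 1 in either direction. CCN2 and LATS2 lie beyond 1 with their whole intervals, CCN1 reaches 1 with its upper bound, and the intervals of TEAD1 and AJUBA cross 0.

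By adjusted p, 7 of the 10 genes were higher in Sev and 0 were lower. Among all tested features 22.1% were higher and 21.5% were lower by the same rule, and among protein-coding genes 25.0% and 21.0%. Unadjusted, 8 of the 10 were higher and 0 lower with p under 0.05 by edgeR, against 26.1% higher and 26.0% lower of all features. The 7 higher by adjusted p became 4 without control replicate 3 and 5 with library size only. With library size only, or with limma on FPKM, TEAD1 passed as lower. The study's own limits, an absolute log2 fold change above 1 and an unadjusted p under 0.05, were met by CCN2 and LATS2 alone, 2 higher and 0 lower, against 11.4% higher and 12.0% lower of all features. In CPM the 2 groups did not overlap for 8 genes, all higher in Sev, while 28.3% of all features were separate and higher and 28.2% separate and lower. This count depended on the scaling. In FPKM, which has no TMM correction, CCN1, CCN2, AMOTL2, WWTR1 and LATS2 stayed separate and higher. ANKRD1, YAP1 and LATS1 overlapped in FPKM, as did AJUBA. TEAD1 was separate and lower in FPKM, with its highest Sev library at 8.95 and its lowest control library at 9.70. The median log2 fold change of the 10 genes was 0.33, and that of all features −0.0056. Among the Sev libraries replicate 2 was the highest for 8 genes and replicate 3 the lowest for 9. Control replicate 2 was the highest control library for 8.

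**Figure D3:**
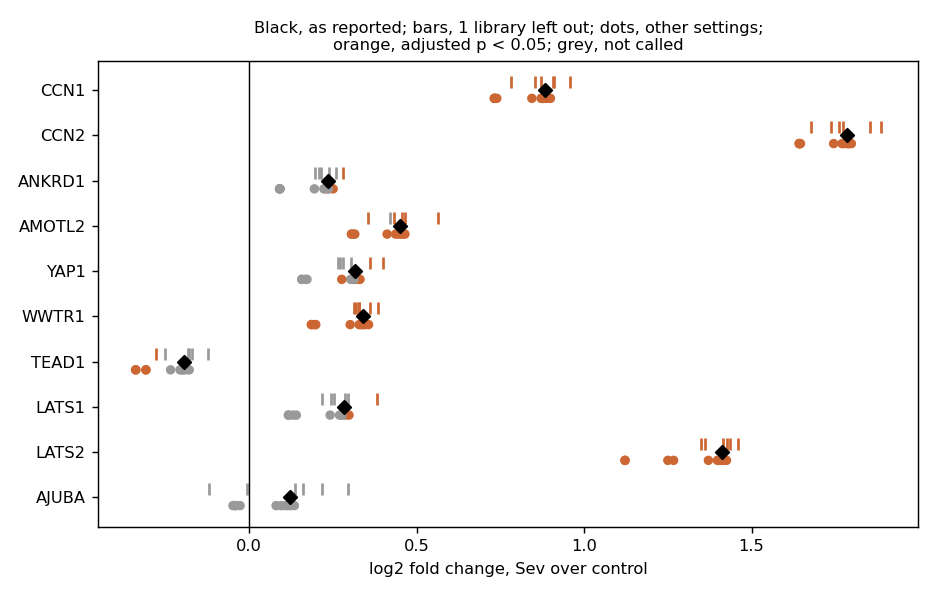
Log2 fold change of each gene, Sev over control (x axis), under the ways of processing tried. Black diamonds are the values reported, bars the fits without 1 library and dots the other settings, orange where the adjusted p was under 0.05 and grey where not. CCN2 and LATS2 stay above 1 throughout, and AJUBA lies on both sides of 0.

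Ratios between related genes were taken within each library, where the scaling between libraries has no part. The FPKM of LATS1 over that of LATS2 was 1.54, 1.29 and 1.40 in control cells and 0.565, 0.619 and 0.751 in Sev-treated cells. Control cells thus held more LATS1 than LATS2 per length in each library, and Sev-treated cells held less. The count ratio fell by 1.13 on the log2 scale (exact two-sided permutation p = 0.1, the smallest that 3 against 3 can give, and 0.15 after adjustment over 3 pairs). The ratio of CCN1 to CCN2 was 1.38, 1.11 and 1.22 in control cells and 0.614, 0.702 and 0.653 in Sev-treated cells. It likewise crossed from above 1 to below 1 in each library, and fell by 0.91 on the log2 scale (exact permutation p = 0.1, adjusted 0.15). The ratio of YAP1 to WWTR1 was 0.706, 0.756 and 0.734 in control cells and 0.739, 0.742 and 0.676 in Sev-treated cells. The groups overlapped, and the log2 difference was −0.027 (exact permutation p = 0.7). The exact test of 3 against 3 cannot reach 0.05.

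**Figure D4:**
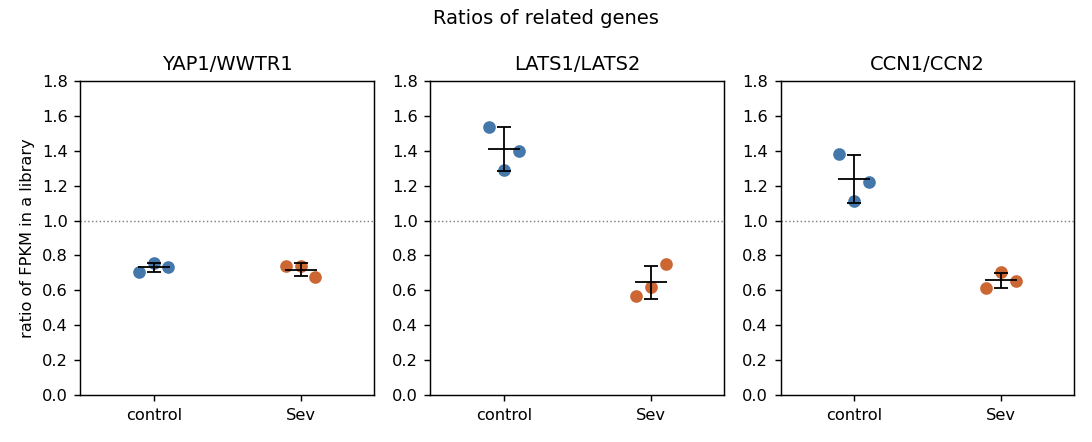
Ratio of FPKM of 2 related genes within each library (y axis from 0), with points for libraries and bars for mean and SD. The dotted line marks equal levels. LATS1 over LATS2 and CCN1 over CCN2 are above the line in the control libraries and below it in the Sev libraries, and YAP1 over WWTR1 stays near 0.7 in both.

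A further list of 17 YAP and TAZ target genes from the general literature, apart from the 10 genes, was read from the same fit. Like the 10 genes and the other lists, it was chosen with earlier results of these data known. Its counts are thus no independent support. All 17 were tested, and 10 were higher in Sev, 0 were lower and 7 did not pass, where 22.1% of all features were higher and 21.5% lower. Their median log2 fold change was 0.49. FJX1, a Golgi protein of the Fat and Dachsous branch, held 9.60, 13.7 and 14.1 CPM in control cells and 49.8, 53.1 and 41.9 CPM in Sev-treated cells, a log2 fold change of 1.95 (adjusted p = 0.000184). GADD45A, a stress gene also driven by p53 and ATF4, rose from 28.5 ± 3.54 CPM to 103 ± 14.6 CPM (SD, n = 3). TGFB2, a TGF-beta ligand, held 25.7, 31.7 and 24.6 CPM in control cells and 73.2, 111 and 58.7 CPM in Sev-treated cells, with Sev replicate 2 the highest. MYOF, a membrane repair protein, and CCDC80, a matrix protein, had log2 fold changes of 0.54 and 0.74. These 5 had the smallest adjusted p-values of the list, from 0.000117 to 0.00143.

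The other 5 that rose, named after their values were seen, were F3, NT5E, AXL, CRIM1 and IGFBP3. F3, the tissue factor that starts blood clotting, had the highest fold of the list and the widest spread, with 7.45, 8.58 and 7.11 CPM in control cells and 32.8, 67.0 and 22.7 CPM in Sev-treated cells. This was a change of 2.40 ± 0.37 in log2 units, with its standard error (edgeR, adjusted p = 0.00176). AXL, a receptor tyrosine kinase, and CRIM1, a transmembrane protein that binds BMP ligands, had log2 fold changes of 0.49 and 0.47. NT5E, which makes adenosine from AMP, had 0.93. IGFBP3 was low, with at most 139 counts in a library, and had 1.11 (adjusted p = 0.0141), a call lost without control replicate 1 (0.0527) and in the FPKM fit with no filter. The 7 that did not pass were ASAP1, FOXF2, DOCK5, PTPN14, ARHGEF17, NUAK2 and RBMS3. NUAK2, a kinase that feeds back on the pathway, had a log2 fold change of 0.048 (adjusted p = 0.755), and PTPN14, a phosphatase that binds YAP, 0.0019 (adjusted p = 0.987).

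CCN1, CCN2 and several of these genes are also driven by the serum response factor SRF, which like YAP and TAZ follows the actin cytoskeleton. Of 17 genes listed for SRF, its coactivators and actin, 16 were tested, and 8 were higher in Sev, 0 lower and 8 not called, beside shares of 22.1% and 21.5% over all features. The median log2 fold change was 0.34. TAGLN, an actin-binding protein of smooth muscle, held 6.48, 4.85 and 11.1 CPM in control cells and 32.0, 40.9 and 20.1 CPM in Sev-treated cells (log2 fold change 2.05, adjusted p = 0.00287). ZYX, a focal adhesion protein, rose from a mean of 88.0 to 176 CPM (adjusted p = 0.00045) and FHL2, a LIM cofactor, by 1.04 on the log2 scale (adjusted p = 0.00109). SRF itself rose by 0.36 (adjusted p = 0.00908). CNN1, a smooth muscle calponin, rose by 1.61, at no more than 82 counts in a library. The actin genes did not pass, with log2 fold changes of −0.019 for ACTB, 0.24 for ACTG1 and −0.14 for ACTA2 (adjusted p = 0.94, 0.109 and 0.48). MRTFB, an SRF coactivator, had −0.54 (adjusted p = 0.0528) and passed as lower in 7 of 16 alternatives.

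**Figure D5:**
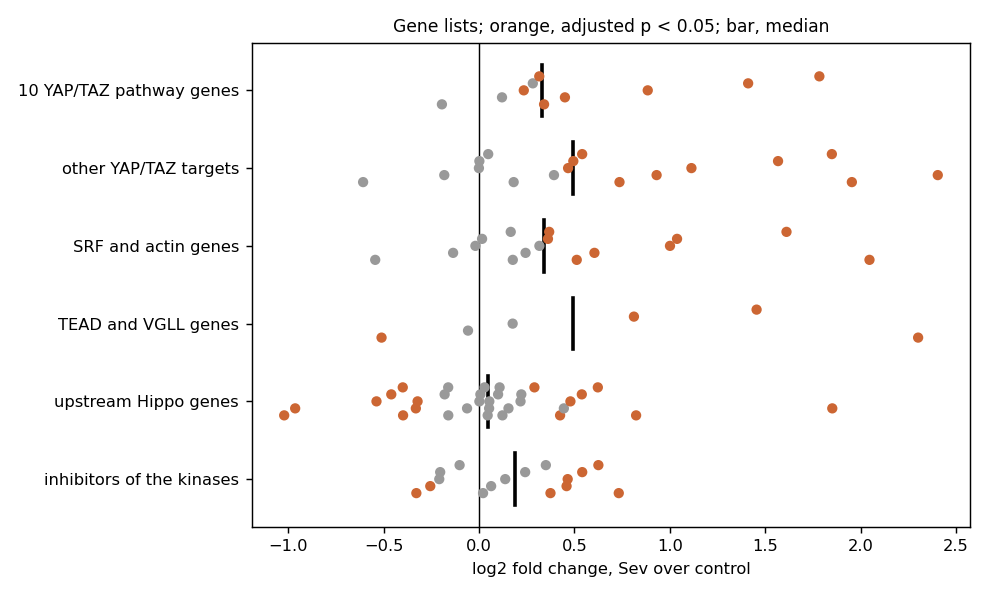
Log2 fold change, Sev over control (x axis), of the tested genes of each list. Each point is a gene, orange where the adjusted p was under 0.05, and black bars are medians. The orange points of the 10 genes, of the other YAP/TAZ targets and of the SRF and actin genes all lie right of 0, and those of the upstream Hippo genes lie on both sides.

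Among the partners of YAP and TAZ at DNA, 6 of 7 listed genes were tested, 3 were higher and 1 was lower (all features, 22.1% and 21.5%). VGLL3 and VGLL2, of the vestigial-like family that binds TEAD factors in place of YAP and TAZ, rose most. VGLL3 held 10.4, 11.5 and 9.43 CPM in control cells and 30.3, 31.3 and 24.3 CPM in Sev-treated cells (log2 fold change 1.45, adjusted p = 0.000264). VGLL2 held 2.34, 2.45 and 3.19 CPM in control cells and 11.4, 17.5 and 10.5 CPM in Sev-treated cells (log2 fold change 2.30, adjusted p = 0.000372). Both passed in all 16 alternatives. TEAD4 was higher (0.81, adjusted p = 0.0339) and TEAD2 lower (−0.51, adjusted p = 0.0246), and each of these 2 calls failed in 4 of 6 leave-one-out fits. TEAD4 lost its call without control replicates 1 and 3 and Sev replicates 1 and 3, and TEAD2 without control replicates 1 and 2 and Sev replicates 1 and 3, with adjusted p up to 0.104 for TEAD4 and 0.0846 for TEAD2. TEAD4 also lost it with library size only, with no expression filter and in the 3 FPKM fits. TEAD3 and VGLL4 did not pass, and VGLL1 was too low to be tested.

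Calls among the upstream Hippo genes were about as frequent as among all features. Of 32 listed genes for kinases, adaptors and cell-surface cadherins, 7 were higher, 8 were lower and 17 did not pass, where 22.1% of all features were higher and 21.5% lower. The median log2 fold change was 0.049, which turned to −0.093 with library size only. The core kinases STK3 (MST2) and STK4 (MST1) and their partner SAV1 did not pass, with log2 fold changes of −0.063, 0.045 and 0.054 (adjusted p from 0.638 to 0.739). Of the LATS cofactors, MOB1A rose from 178 ± 14.2 to 248 ± 4.37 CPM (SD, n = 3), while MOB1B had 67.7 and 68.0 CPM. The scaffold genes NF2 (merlin), FRMD6 and RASSF1 were higher, with log2 fold changes of 0.42, 0.54 and 0.62. The call of NF2 was lost in 6 of 16 alternatives, namely without control replicate 3 or Sev replicate 3 (adjusted p up to 0.0588), with library size only and in the 3 FPKM fits. DCHS1, a giant cadherin that binds FAT4, rose most in the list, from 3.03, 2.04 and 2.70 CPM to 10.4, 8.04 and 9.64 CPM (log2 fold change 1.85, adjusted p = 0.000379).

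STK38, a kinase of the LATS family that can also phosphorylate YAP, fell furthest of the list. It held 59.8, 55.8 and 60.1 CPM in control cells and 29.5, 32.7 and 24.4 CPM in Sev-treated cells, a log2 fold change of −1.02 (adjusted p = 0.000574). Its paralog STK38L fell by 0.46 on the log2 scale (adjusted p = 0.0149). The cadherin genes FAT3 and FAT2 fell by 0.40 and 0.96, and the kinase gene TAOK2 by 0.33. The call of FAT2 was lost without control replicate 1 or Sev replicate 1 (adjusted p up to 0.0612), with the replicate block and in the FPKM fit with no filter, and that of TAOK2 without Sev replicate 1 (0.0590).

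Of 16 listed genes that restrain the Hippo kinases, 6 were higher, 2 were lower and 8 did not pass (all features, 22.1% and 21.5%), with a median log2 fold change of 0.19. Those that rose included PPP2CA and PPP2R1A, the catalytic and scaffold subunits of the phosphatase PP2A, with 0.63 and 0.46, and STRN4, a striatin that recruits PP2A, with 0.54 (adjusted p from 0.000924 to 0.00305). MARK4 and WTIP, an AJUBA relative, had 0.46 and 0.73, and the call of WTIP was lost in the 3 FPKM fits. LIMD1, another AJUBA relative, was lower by −0.33 (adjusted p = 0.0256). The call of LIMD1 was lost without control replicate 3, Sev replicate 1 or Sev replicate 2, with adjusted p up to 0.0946. Of the other CCN genes, CCN3 and CCN4 were tested and CCN5 and CCN6 were too low. CCN4 had 5 to 43 counts in a library and a log2 fold change of −1.37 (adjusted p = 0.0459), a call that held in 5 of the 13 alternatives in which it was tested and, among the fits without a library, only without Sev replicate 2.

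The libraries held from 38624292 to 46318311 counts, so the rarest of the 10 genes, LATS2, still had 1353 counts in its lowest library. The first principal component held 69.0% of the variance and separated the groups. Pairs of replicates differed beyond counting noise in 52.3% to 71.7% of the well-counted genes, so none looked like a second copy. Of the glial and glioma markers checked against the label, 8 of 10 reached 1 FPKM, with a summed level of 1288 to 1501 FPKM in control and 1291 to 1403 FPKM in Sev libraries, and VIM, NES and GFAP were among the 8. By adjusted p, 1 of the 9 tested was higher in Sev and 3 were lower (all features, 22.1% and 21.5%). Named after their values were seen, these were CD44, with a log2 fold change of 0.97, and SOX2, S100B and OLIG2, with −0.72, −1.10 and −1.99, the last under 1 FPKM on average in both groups. Of 12 markers of immune, endothelial, epithelial, neuronal, fibroblast and oligodendrocyte cells, 3 reached 1 FPKM in some library, CD3E was listed at 0 in all, and the sum was 4.38 to 5.59 FPKM in control and 5.62 to 6.51 FPKM in Sev libraries. Of the 7 tested, 3 were higher and 0 lower by adjusted p, SYT1, PECAM1 and MBP, with log2 fold changes of 0.55, 0.92 and 1.01 (all features, 22.1% and 21.5%). The part of either marker list in the results was not tested.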

How the data were processed

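RNA of untreated and Sev-treated U251 cells was depleted of ribosomal RNA and sequenced as strand-specific paired-end libraries. The authors deposited a table of read counts per feature and a table of FPKM. The submitters' processing notes name bcl2fastq 2.19, featureCounts and hg18. The aligner, the annotation and the strand setting of the counting are not given in the sources used here. Gene positions were taken from GENCODE 29 (GRCh38) by Ensembl identifier, since the tables hold no coordinates.

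Counts were tested with edgeR 4.0.16 in R 4.3.3 (filterByExpr, TMM, quasi-likelihood test, Benjamini-Hochberg over 27514 features), with 3 libraries a group and no covariate. Ratios of related genes were compared by exact permutation with scipy 1.17.1. Alternatives were DESeq2 1.42.0, its size factors, library size only, other filters, protein-coding genes only (chosen after seeing the data), limma 3.58.1 on log2(FPKM + 1) and log2(FPKM + 0.1), a replicate block and leaving out each library, 16 in all. The fits were tested on simulated data. The 10 genes and all lists were chosen with earlier results of these data known. In each list up to 5 genes a direction with the smallest adjusted p among those that passed were named. 1 gene that passed in these lists is not reported here by name.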

Additional observations from a re-analysis of the deposited data

How the results depend on the processing

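CCN1, CCN2, WWTR1 and LATS2 passed in all 16 alternatives, with log2 fold changes of 0.73 to 0.96, 1.64 to 1.89, 0.19 to 0.38 and 1.12 to 1.46. Of the 10 genes, 7 were higher, against 4 with limma on log2(FPKM + 1) without a filter and 4 to 6 when a library was left out. The count of lower genes was 0, and 1 (TEAD1) with library size only and with the 3 FPKM fits, and 0 to 1 without a library. Library size only moved the median of all features by −0.14. AJUBA turned to −0.028 with library size only, −0.049 with FPKM + 0.1, −0.041 with FPKM + 1 with or without a filter, and ranged from −0.12 to 0.30 without a library, with −0.006 without control replicate 1. The YAP1 to WWTR1 ratio ranged from −0.053 to 0.016 on the log2 scale without a library.

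Among the upstream Hippo genes 7 higher became 4 with the 3 FPKM fits (4 to 7 without a library), and 8 lower became 4 with the replicate block (4 to 7). For the inhibitors 2 lower became 1 with DESeq2, its size factors, no filter or the block, 5 with library size only and 4 with the FPKM fits (0 to 2). Lower targets went from 0 to 1 with the block (0 to 1). The lower CCN gene went from 1 to 0 with DESeq2, no filter or protein-coding genes only (0 to 1). It was also 0 with at least 10 counts and in the 2 filtered FPKM fits, where CCN4 was not tested. Lower SRF genes went from 0 to 1 with DESeq2, at least 10 counts, library size only, the filtered FPKM fits or protein-coding genes only (0 to 1). The lower TEAD partner ranged from 0 to 1 without a library. The cause of the shifts, apart from CCN4 where a filter removed it, was not tested.

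A pairing of the samples by replicate number was not seen. Deviations of same-numbered control and Sev libraries from their group means, over the tested features, correlated at −0.00723, 0.00351 and 0.0270. Such values cannot exclude a pairing. With the replicate block 5 of the 10 genes were higher and 0 lower, ANKRD1 (adjusted p = 0.0755) and YAP1 (0.0535) losing the call, and 5228 features were higher and 5021 lower. By these deviations, not every sample correlated best with its own number. With 3 libraries a group, small changes such as those of LATS1 and ANKRD1 are at the limit of what these data resolve.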

Other observations

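Other transcripts annotated at or copied from the 10 genes were read from the same fit, a choice made after the data were seen. Of 17, 14 were tested, 4 were higher and 2 were lower in Sev by edgeR, where 22.1% of all features were higher and 21.5% lower. None held over 3.92% of the counts of its gene. Without a stated strand setting, reads of a gene and of its antisense partner cannot be told apart. AL133346.1, antisense to CCN2, held 77, 92 and 112 counts in control cells and 186, 223 and 198 in Sev-treated cells, and its log2 fold change was 1.30 (adjusted p = 0.00111, edgeR). The groups did not overlap, as for CCN2 itself. YAP1P1, a processed pseudogene of YAP1, held 12, 15 and 10 counts in control cells and 77, 66 and 72 in Sev-treated cells, a log2 fold change of 2.70 (adjusted p = 0.000379, edgeR), while YAP1 had 0.32. Reads could be split between near-identical copies, so its value is uncertain. WWTR1-IT1, within an intron of WWTR1, held 146, 92 and 140 counts in control cells and 55, 68 and 39 in Sev-treated cells, a log2 fold change of −1.03 (adjusted p = 0.0174, edgeR), while WWTR1 had 0.34.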
